A study of Homo sapiens with 6 samples.

Results

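A set of 8 chemokine genes made by colon epithelium was followed through bortezomib-resistant variants of the colon adenocarcinoma line HT-29. They were CXCL8, CXCL1, CXCL2, CXCL3, CXCL5, CXCL10, CXCL16 and CCL20, taken by name whatever their values. The array carried 13 probe sets naming 1 of these 8 genes alone, among 54675 probe sets and 19775 genes in all. The wild-type variant and the resistant variants BR100 and BR200 each had 2 arrays, which differed in labelling kit. The 3' IVT Express kit started from 100 ng of total RNA and the One-Cycle kit from 3 ug. The labels describe HT-29 cells held in bortezomib, a proteasome inhibitor, while its concentration was raised from 20 to 300 nM over 7 months. Clones were then picked by limiting dilution, with bortezomib at 100 or 300 nM throughout another 4 months. That text stands on all 6 samples, wild type included, and gives neither the dose used to clone BR200 nor whether drug was present at harvest. Each resistant variant is a clonal isolate by that account, so a difference may belong to a clone. No label says whether both arrays of a variant had their own culture, and p-values therefore measure only the spread between these arrays.

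Chemokines are small secreted proteins that attract leukocytes along a gradient by binding G protein-coupled receptors. CXCL8 (interleukin-8) and CXCL1, CXCL2, CXCL3 and CXCL5 carry a Glu-Leu-Arg motif before the CXC cysteines and draw neutrophils through the receptors CXCR1 and CXCR2. CXCL10 is induced by interferon and draws activated T cells through CXCR3, CXCL16 is made as a membrane protein and binds CXCR6, and CCL20 draws cells that bear CCR6. In intestinal epithelium many of these genes are induced by microbial products and cytokines through NF-kappaB, whose inhibitor IkappaB is degraded by the proteasome.

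The upstream sequences of the neutrophil chemokines are shown because CXCL1, CXCL2 and CXCL3 nearly share theirs. Against wild type, CXCL1 was higher in BR100 while CXCL2 and CXCL3 were lower. RefSeq's promoter table (GRCh38.p14) held 7 of the 8 members, all but CXCL16. The windows are the 150 bases before the RefSeq start, at chr4:73740419-73740568 on the plus strand for CXCL8 and chr4:73869243-73869392 on the plus strand for CXCL1. Those of CXCL2 (chr4:74099196-74099345), CXCL3 (chr4:74038690-74038839) and CXCL5 (chr4:73998678-73998827) are on the minus strand. Each is written 5' to 3', and capitals mark a 9-base NF-kappaB-type motif, GGAATTTCC, and, in CXCL8, an AP-1 motif, TGANTCA.
CXCL8: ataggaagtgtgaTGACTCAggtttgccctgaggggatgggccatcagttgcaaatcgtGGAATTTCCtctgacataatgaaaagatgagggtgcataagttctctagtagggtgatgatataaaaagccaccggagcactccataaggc
CXCL1: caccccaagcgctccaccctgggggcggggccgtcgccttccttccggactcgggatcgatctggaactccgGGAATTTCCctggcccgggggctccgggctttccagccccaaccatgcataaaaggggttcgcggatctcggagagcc
CXCL2: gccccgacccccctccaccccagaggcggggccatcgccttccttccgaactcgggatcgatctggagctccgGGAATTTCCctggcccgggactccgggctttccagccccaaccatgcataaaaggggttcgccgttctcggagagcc
CXCL3: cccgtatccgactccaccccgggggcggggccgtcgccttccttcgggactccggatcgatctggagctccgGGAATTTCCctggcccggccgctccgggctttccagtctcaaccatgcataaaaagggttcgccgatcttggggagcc
CXCL5: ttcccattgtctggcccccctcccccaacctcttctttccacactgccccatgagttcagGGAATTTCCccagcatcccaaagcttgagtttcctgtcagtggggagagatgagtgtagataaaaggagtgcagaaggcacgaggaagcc
The motif GGAATTTCC lay at positions -91 to -83 from the start in CXCL8, -78 to -70 in CXCL1 and CXCL3, -77 to -69 in CXCL2 and -90 to -82 in CXCL5. With both strands and 250 bases searched, 145 of 35116 promoter windows (0.413%) held it. CXCL10 held it on the reverse strand at -176 to -168, and the CCL20 window held no match to these 9 letters. The broader kappaB consensus, found in 5.21% of all windows, matched in CCL20 at -79 to -70, in CXCL10 and in CXCL1, CXCL2, CXCL3 and CXCL5, and not in CXCL8. TGANTCA was found in 6.57% of all windows and, among the members, in CXCL8 at -137 to -131. In global alignments of the 150 bases, CXCL1 shared 88.7% of positions with CXCL2 and 88.1% with CXCL3, and CXCL2 shared 86.1% with CXCL3. CXCL8 shared between 43.6% and 47.5% with any of the other chemokine windows compared on that chromosome. A match describes these letters and does not show that a factor was bound.

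Values are log2 expression as deposited, with 2.23 the lowest value on each array, and 4 was taken as the level of detection. Of the 8 members, 6 were tested because their probe set reached 4 on at least 2 of the 6 arrays. CXCL5 and CCL20 did not. In BR100 all 6 tested members differed from wild type in limma's test at an adjusted p under 0.05: CXCL8 and CXCL1 were higher and CXCL2, CXCL3, CXCL10 and CXCL16 were lower. That share is read against a wide background, since 68.5% of all 10370 tested genes passed in BR100 against wild type, 36.7% higher and 31.8% lower. In BR200, CXCL8 and CXCL1 rose again and the other 4 did not pass the test, where 66.5% of all genes passed, 35.4% higher and 31.2% lower. Levels are bulk values per array, in which fewer cells making a transcript and less transcript per cell cannot be told apart. Values are compared between arrays of one probe set and not between genes.

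**Figure D1:**
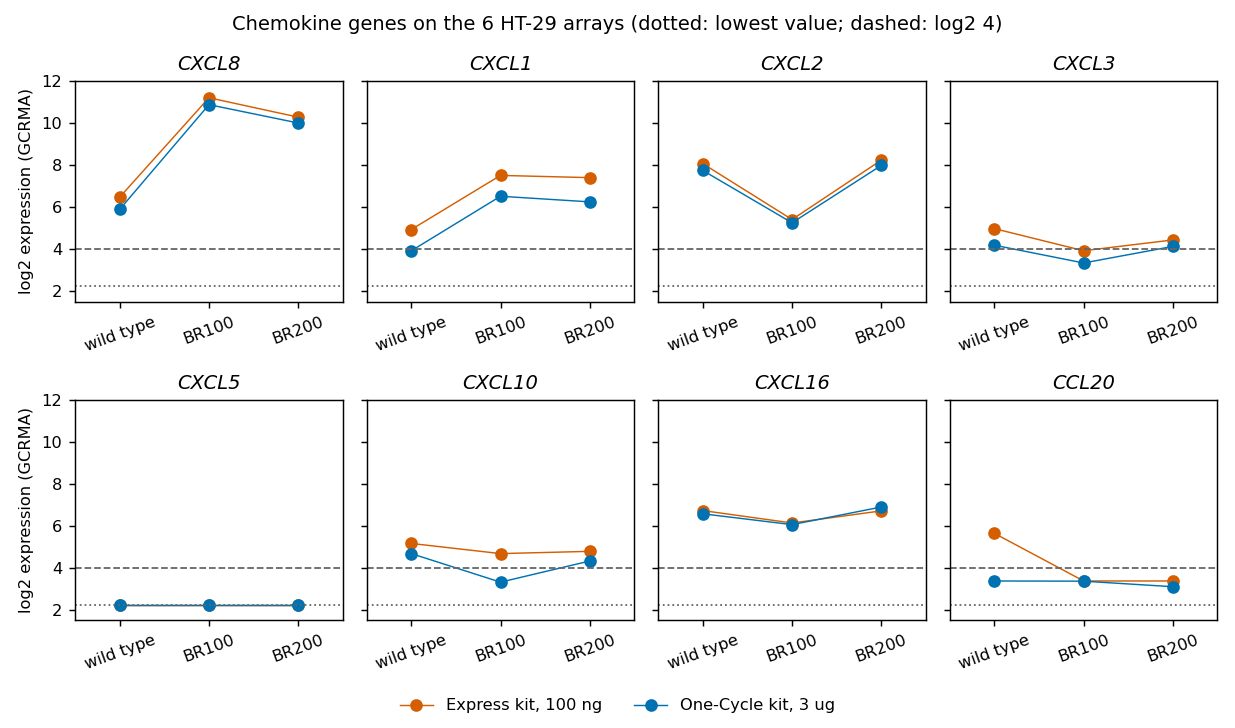
Log2 expression of each of the 8 chemokines on the 6 arrays, by cell variant, with separate marks for the Express and One-Cycle kits. CXCL8 and CXCL1 sit higher on all 4 arrays of the resistant variants than on both wild-type arrays, CXCL2 is low in BR100 alone among the variants, and CXCL5 lies at 2.23 on every array.

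CXCL8, the main neutrophil attractant of human epithelium, changed most of the tested members against wild type. Its probe set 202859_x_at read 6.47 (Express) and 5.89 (One-Cycle) in wild type, 11.20 and 10.88 in BR100, and 10.28 and 10.00 in BR200. The variants did not overlap, with BR100 highest and wild type lowest in both kits. The group means were 6.18 ± 0.41, 11.04 ± 0.23 and 10.14 ± 0.20 (SD, n = 2). CXCL8 was 29.0-fold higher in BR100 than in wild type (log2 difference 4.86, SE 0.101, adjusted p = 6.99e-05) and 15.6-fold higher in BR200 (3.96, SE 0.101, adjusted p = 0.000104). A second CXCL8 probe set, 211506_s_at, read 4.89 and 3.43 in wild type, 9.88 and 9.95 in BR100, and 8.72 and 8.78 in BR200. It gave log2 differences of 5.76 (SE 0.441) in BR100 and 4.59 (SE 0.441) in BR200, so both probe sets rose in both variants. On this second probe set the One-Cycle wild-type array was under 4, so the size of its differences depends on the background estimate. The suffixes x and s mark probe sets that may bind more than one transcript.

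CXCL1, which binds CXCR2, also rose in both resistant variants. It read 4.93 and 3.92 in wild type, 7.51 and 6.52 in BR100, and 7.40 and 6.25 in BR200. The One-Cycle wild-type array was under 4, so the size of the rise depends on the background estimate. Every resistant array lay above both wild-type arrays, and the Express array was the higher of each pair. The rise was 6.01-fold in BR100 (log2 difference 2.59, SE 0.0762, adjusted p = 0.000105) and 5.28-fold in BR200 (2.40, SE 0.0762, adjusted p = 0.000149). Within each kit the differences were close, at 2.58 and 2.60 in BR100 and 2.47 and 2.33 in BR200.

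CXCL2, a close relative of CXCL1, went the other way in BR100. Probe set 209774_x_at read 8.07 and 7.74 in wild type, 5.41 and 5.25 in BR100, and 8.23 and 7.98 in BR200. The BR100 arrays stood clear below the other 4, and the wild-type and BR200 ranges overlapped. CXCL2 fell by 2.57 on the log2 scale in BR100 (SE 0.0756, adjusted p = 0.000105), which is 5.96-fold lower than wild type. In BR200 the difference from wild type was 0.20 (adjusted p = 0.0718), with a 95% interval from -0.00 to 0.41. The other CXCL2 probe sets gave no second reading: 1569203_at was at the lowest value on 5 arrays and at 2.32 on the sixth, and 230101_at was at the lowest value on all 6. The CXCL2 call therefore rests on 1 probe set of the x class, and averaging the 3 probe sets shrinks the BR100 difference to -0.86.

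CXCL3, the third member of the CXCL1 group, lay near the level of detection. It read 4.98 and 4.19 in wild type, 3.92 and 3.34 in BR100, and 4.44 and 4.13 in BR200. Both BR100 arrays were under 4 and below every other array, so the size of the drop depends on the background estimate. The BR100 difference was -0.95 (SE 0.132, adjusted p = 0.00365), and it was -0.58 with an adjusted p of 0.0579 when values under 4 were raised to 4. In BR200 the difference from wild type was -0.30 (adjusted p = 0.110).

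CXCL5, the remaining neutrophil attractant, read 2.23 on every array with each of its 3 probe sets. It was not detectable here in any variant, and its window carries the same 9-base motif. Together the 5 neutrophil chemokines thus gave 2 higher, 2 lower and 1 undetected in BR100, and 2 higher, 2 not passing and 1 undetected in BR200. These counts stand beside 36.7% of all tested genes higher and 31.8% lower in BR100, and 35.4% and 31.2% in BR200.

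**Figure D2:**
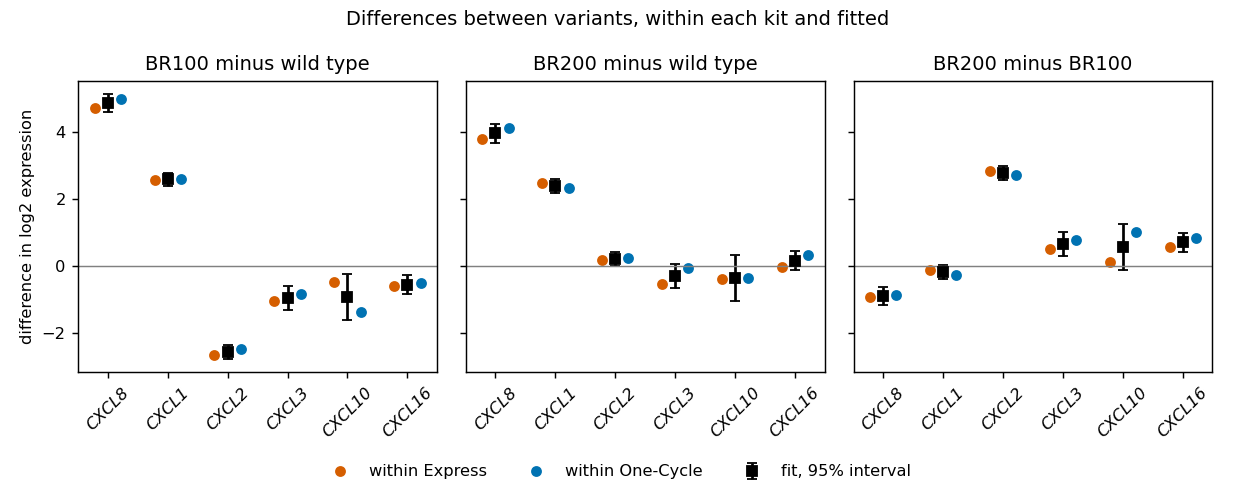
Difference in log2 expression of the 6 tested chemokines in BR100 against wild type, BR200 against wild type and BR200 against BR100; circles are the differences within each kit, and black squares limma's fit with its 95% interval. CXCL8 (4.86 and 3.96) and CXCL1 (2.59 and 2.40) lie above 0 in both resistant variants, and CXCL2 (-2.57) lies below 0 in BR100.

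CXCL10, the interferon-induced T-cell attractant, was low throughout. It read 5.15 and 4.67 in wild type, 4.67 and 3.31 in BR100, and 4.77 and 4.31 in BR200. The lower wild-type array and the higher BR100 array tied, so these groups were not separated. The BR100 difference of -0.92 (SE 0.254) passed with an adjusted p of 0.0306, but within kits it ran from -0.48 (Express) to -1.36 (One-Cycle). Without the Express wild-type array the adjusted p was 0.0908, and without the One-Cycle wild-type array it was 0.205. In BR200 the difference was -0.36 (adjusted p = 0.265), and its adjusted p was 0.0261 with either BR100 array left out.

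CXCL16, the membrane-bound chemokine released by the sheddases ADAM10 and ADAM17, had the smallest difference from wild type of the 6 tested members in BR100 and in BR200. It read 6.71 and 6.56 in wild type, 6.12 and 6.05 in BR100, and 6.70 and 6.88 in BR200. The BR100 arrays were the lowest, and wild type and BR200 overlapped. CXCL16 fell by 0.55 in BR100 (SE 0.106, adjusted p = 0.0101). The adjusted p passed 0.05 without the Express wild-type array (0.0695) or without either BR100 array (0.0510 and 0.0735). In BR200 the difference was 0.15 (adjusted p = 0.259), being -0.01 in Express and 0.32 in One-Cycle.

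CCL20, the ligand of CCR6, was detected on 1 array. It read 5.63 on the Express wild-type array and 3.36 on the One-Cycle one, 3.36 and 3.35 in BR100, and 3.36 and 3.09 in BR200. The Express difference of -2.27 in either variant therefore rests on a single wild-type array, while the One-Cycle differences were -0.01 and -0.27. It was not tested.

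The resistant variants were next compared with each other. CXCL2 was 6.86-fold higher in BR200 than in BR100 (log2 difference 2.78, SE 0.0756, adjusted p = 0.00283), with 2.83 in Express and 2.73 in One-Cycle. CXCL16 was higher in BR200 by 0.71 (adjusted p = 0.0333), and CXCL8 was lower by 0.90 (difference -0.90, adjusted p = 0.0204). These 3 of 6 tested members passed where 10.6% of all genes did, 6.39% higher and 4.23% lower in BR200. The second CXCL8 probe set gave -1.17 and did not pass (adjusted p = 0.194). CXCL3 (0.65, adjusted p = 0.0541) and CXCL10 (0.56, adjusted p = 0.227) did not pass. CXCL1 differed by -0.19 (adjusted p = 0.188), with a 95% interval from -0.39 to 0.02 on the log2 scale. The CXCL8 and CXCL16 calls were lost without any 1 of the 6 arrays (adjusted p from 0.0629 to 0.157 and from 0.0831 to 0.206). For CXCL2 the difference stayed between 2.71 and 2.84 and the adjusted p between 0.0498 and 0.0714, passing without either wild-type array and not without a resistant one. Averaged over the 3 CXCL2 probe sets, of which 2 lay at or near the lowest value, the difference was 0.94.

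The neutrophil chemokines lie in a cluster on chromosome 4, and the genes between them were read in RefSeq order. RASSF6, a Ras-association domain gene next to CXCL8, fell (log2 differences -3.04 in BR100 and -1.67 in BR200). CXCL6, another CXCR1 and CXCR2 ligand beside CXCL8, read 2.35 and 2.45 in wild type, 7.56 and 7.00 in BR100, and 7.86 and 6.96 in BR200. It passed the filter through its resistant arrays alone, so the log2 differences of 4.88 and 5.01 are given without a test and depend on the background estimate in wild type. The platelet chemokine genes PF4V1, PF4 and PPBP, which lie between CXCL6 and CXCL5, were at the lowest value on every array. Beyond CXCL2, the folate enzyme gene MTHFD2L gave 0.57 in BR100 (adjusted p = 0.0221) and 0.31 in BR200, and another of its probe sets, 220346_at, gave -0.68 and -0.75. Farther along the chromosome CXCL11, a CXCR3 ligand next to CXCL10, fell (log2 differences -2.19 in BR100 and -1.96 in BR200). Along the cluster, CXCL8, CXCL6 and CXCL1 read higher in BR100, and CXCL3, which was under 4 there, and CXCL2 read lower. Genes of each direction stood side by side in BR100, apart from undetected genes between them. In BR200 CXCL3 (-0.30) and CXCL2 (0.20) did not pass the test.

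**Figure D3:**
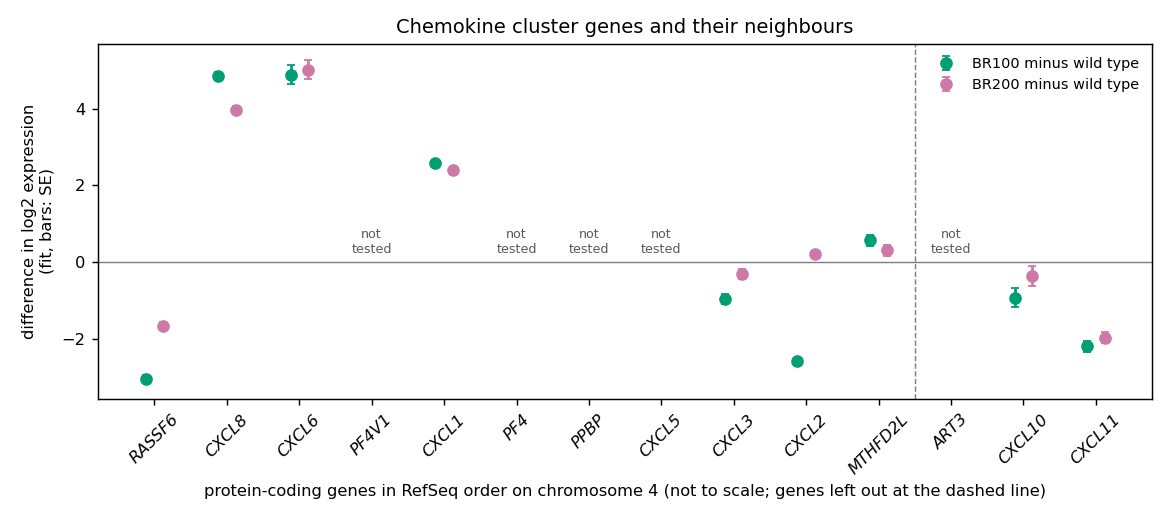
Difference in log2 expression against wild type for the genes of the chromosome 4 chemokine cluster, in RefSeq order and not to distance, with bars for limma's standard error. CXCL8, CXCL6 and CXCL1 lie above 0 in both resistant variants, CXCL3 and CXCL2 lie below 0 in BR100, and genes at the lowest array value are marked as not tested.

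Of 30 other chemokines with a probe set of their own, 24 stayed under 4 on every array and 4 were tested. In BR100, 2 were higher and 2 lower, and in BR200, 1 was higher and 2 lower. These counts include CXCL6, which passed the filter through its resistant arrays alone and was the only one higher in BR200. Of all tested genes, 36.7% were higher and 31.8% lower in BR100, and 35.4% and 31.2% in BR200. Besides CXCL6 and CXCL11, CCL5 and CXCL17 were tested. CCL5, a T-cell attractant, fell (log2 differences -2.57 in BR100, where it was under 4, and -1.23 in BR200). CXCL17, a mucosal chemokine, was at 0.71 in BR100 (adjusted p = 0.0162) and 0.02 in BR200. The members' own receptors CXCR1, CXCR2, CXCR3, CXCR6 and CCR6 stayed under 4 on every array, as did 15 of 17 measured receptors. CXCR4, the CXCL12 receptor, read 7.92 and 7.69 in wild type, 3.83 and 2.26 in BR100, and 2.26 on both BR200 arrays. The scavenging receptor ACKR4 read 7.27 and 6.49 in wild type, 2.35 and 2.39 in BR100, and 2.42 and 2.35 in BR200. Both were above 4 in wild type and under 4 on all 4 resistant arrays; they passed the filter through wild type alone, so no test or fold is given. The other CXCR4 probe sets were under 4 on every array, so that reading rests on 1 probe set.

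Of 10 genes listed for chemokine cleavage, which were enzymes and the inhibitor TIMP3, 6 were tested. Of these, 2 rose and 2 fell against wild type in each resistant variant. The shares of all tested genes were 36.7% higher and 31.8% lower in BR100, and 35.4% and 31.2% in BR200. The CXCL16 sheddase ADAM17 fell (log2 differences -0.92 in BR100 and -0.71 in BR200). ADAM10, the other sheddase, differed by 0.08 in BR100 (adjusted p = 0.369) and 0.25 in BR200 (adjusted p = 0.0362) with its brightest probe set. Its probe set 202604_x_at gave 0.65 in each variant (adjusted p = 0.0108 and 0.0116 with every probe set tested), and 214895_s_at gave 0.50 and 0.51 without passing. MMP14, another matrix protease, rose by 0.73 in BR100 and was at 0.24 in BR200 (adjusted p = 0.115). DPP4, a protease that trims CXCL10, fell (log2 differences -2.51 and -2.04), and the matrix protease MMP7 rose by 2.96 and 2.81.

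Among 26 upstream cytokines and receptors, 13 were tested, with 1 higher and 9 lower in BR100 and 1 higher and 8 lower in BR200. TLR4, the lipopolysaccharide receptor, was the one that rose (2.19 and 1.98). TLR3, which senses double-stranded RNA, fell (log2 differences -3.11 and -2.10), and IL1RAP, the interleukin-1 co-receptor, fell (log2 differences -2.59 and -2.55). IL18, an epithelial cytokine, fell (log2 differences -2.86 in BR100, where it was under 4, and -0.87 in BR200), as did the lymphotoxin receptor LTBR (-1.29 and -1.31). The inducing cytokines IL1A, IL1B and TNF stayed under 4 on every array. The list's median difference was -0.70 in BR100 and -0.71 in BR200, beside 0.04 over all genes in each. Its counts stand beside 36.7% of all tested genes higher and 31.8% lower in BR100, and 35.4% and 31.2% in BR200.

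NF-kappaB signalling genes moved both ways. Of 19 tested, 5 were higher and 6 lower in BR100, and 7 were higher and 8 lower in BR200; with arrays centred on their medians the BR100 counts were 4 and 9, and with quantile normalization 5 and 9. The subunit NFKB1 rose by 1.09 in BR100 and 0.67 in BR200, and the inhibitor NFKBIA, itself an NF-kappaB target, by 0.69 and 1.06. IRAK1, a kinase below the interleukin-1 receptor (log2 differences -0.97 and -1.25), the restraining adaptor TNIP1 (-1.09 and -0.59) and the subunit RELA (-0.64 and -0.80) fell. In BR200 the inhibitor NFKBIB fell by 0.88, and its BR100 difference of -0.74 did not pass. NFKB2 read 3.25 and 3.70 in wild type, 3.97 and 4.05 in BR100, and 3.82 and 4.90 in BR200. It is counted among the higher genes in BR200, but it passed the filter through resistant arrays alone. Its log2 differences of 0.54 in BR100 and 0.89 in BR200 are therefore given without a test and depend on the background estimate. NFKBIZ, a nuclear co-regulator, fell by 0.79 in BR100 and rose by 0.36 in BR200, and the variants differed by 1.16 (adjusted p = 0.00784). The list medians were -0.20 and -0.01, beside 0.04 over all genes in each. Over all tested genes, 36.7% were higher and 31.8% lower in BR100, and 35.4% and 31.2% in BR200.

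AP-1 and C/EBP factors, families that can bind upstream of CXCL8, were mostly lower. With 250 bases searched, the C/EBP letters TTGCNNAA had no match in CXCL8. The CXCL8 window holds ttgcaaat, which departs from them in the last base, so the missing match does not show that a C/EBP site is absent. Among the members with a window the letters TTGCNNAA matched in CXCL2 alone, at -188 to -181, and in 9.05% of all windows. All 12 were tested, with 1 higher and 9 lower in BR100 and 1 higher and 8 lower in BR200. The medians were -1.39 and -0.83, beside 0.04 over all genes in each. Of all tested genes, 36.7% were higher and 31.8% lower in BR100, and 35.4% and 31.2% in BR200. JUN rose by 0.87 and 0.99, while CEBPB (log2 differences -1.43 and -1.52) and CEBPG (-2.97 and -3.41) fell. ATF3, a stress-induced repressor of cytokine genes, read 9.42 and 9.28 in wild type, 5.61 and 4.63 in BR100, and 9.78 and 9.58 in BR200. Like CXCL2, ATF3 was low on both BR100 arrays, and it was higher in BR200 than BR100 by 4.56 (adjusted p = 0.00525). FOSL2 (log2 differences -2.05 and -1.65) and CEBPA (-0.32 and -1.60) fell in both variants. FOSB fell by 2.13 in BR100 and was at -0.31 in BR200 (adjusted p = 0.154).

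**Figure D4:**
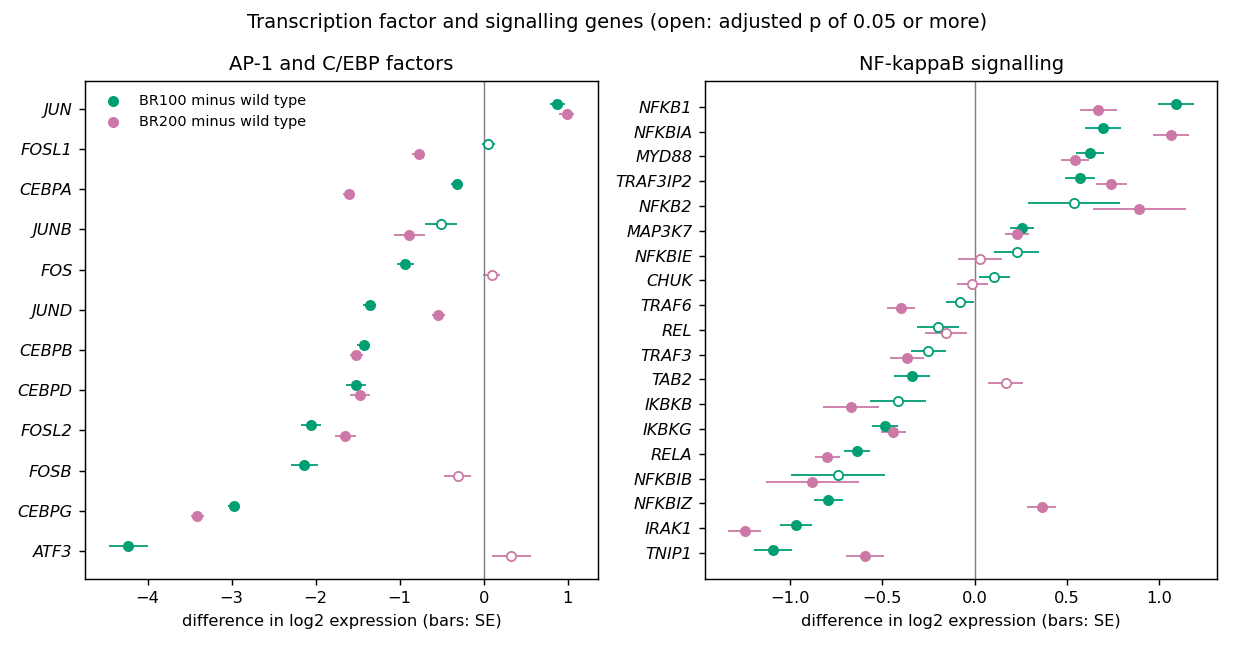
Difference in log2 expression against wild type for the AP-1 and C/EBP factors (left) and the NF-kappaB signalling genes (right), with bars for limma's standard error and open marks for an adjusted p of 0.05 or more. JUN lies to the right in both variants and ATF3 far to the left in BR100, whereas NF-kappaB genes lie on both sides of 0.

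For CXCL10, 7 upstream interferon factors were tested. In BR100 4 were lower and the others did not pass, and in BR200 3 were lower and 1 higher. Among all tested genes, 36.7% were higher and 31.8% lower in BR100, and 35.4% and 31.2% in BR200. IRF7 (log2 differences -3.11 and -2.69), IRF9 (-3.01 and -1.53) and the kinase JAK1 (-1.42 and -1.29) fell. IRF1 fell by 0.61 in BR100 and was at -0.18 in BR200 (adjusted p = 0.103). The kinase TYK2 was at 0.26 in BR100 (adjusted p = 0.0682) and rose by 0.37 in BR200.

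Genes with the pattern nearest to each tested member were found by Euclidean distance over 4 values, the difference of each resistant variant from wild type within each kit. The nearest to CXCL8 were FAM111B (distance 0.663), SPRR1B (0.673) and ORC1 (0.816). SPRR1B (3.17 and 2.33 in wild type) and ORC1 (2.93 and 3.68) passed the filter through their resistant arrays alone. FAM111B read 4.37 and 2.79 in wild type, so these distances depend on the background estimate. For CXCL1 they were CHTF18 (0.108), TMEM106C (0.130) and TMEM107 (0.155), and for CXCL2 they were AKR1C1 (0.534), TNFSF10 (0.591) and CITED2 (0.703). PROM1 (0.134), VAMP4 (0.143) and RPL36A (0.224) were nearest to CXCL3. DPP7 (0.160), TSKU (0.278) and TNFRSF14 (0.335) were nearest to CXCL10, and CARD6 (0.199), LOC114224 (0.226) and CEACAM1 (0.256) to CXCL16. Each gene was read from its brightest probe set, and other probe sets of DPP7 and CEACAM1 disagreed. DPP7 probe set 238012_at gave 1.85 in BR100 and 1.94 in BR200, and CEACAM1 probe set 211883_x_at gave 0.52 and 1.10.

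The labelling kit moved several members as well. The Express array read higher for 4 of 6 tested members at an adjusted p under 0.05, where 34.0% of all tested genes passed: 22.4% of all were higher with Express and 11.7% lower. CXCL1 differed most, by 1.05 (SE 0.0622, adjusted p = 0.0035). CXCL8 differed by 0.40 (adjusted p = 0.0289), CXCL3 by 0.56 (adjusted p = 0.0243) and CXCL2 by 0.24 (adjusted p = 0.0451). CXCL10 differed by 0.77 (adjusted p = 0.0523) and CXCL16 by 0.02 (adjusted p = 0.899). The kits were balanced over variants.

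Between 10063 and 10193 genes reached 4 on an array, and arrays of one variant correlated across genes at r = 0.983 to 0.985 between kits. The difference between the 3' and 5' probe sets of ACTB, which grows as RNA or labelled copies get shorter, was 4.22 (Express) and 2.99 (One-Cycle) in wild type, 3.03 and 1.86 in BR100, and 3.24 and 1.76 in BR200. It was thus larger in wild type in both kits, and its part in the members' differences was not tested. Of 10 epithelial markers 8 were tested, and 4 fell in each resistant variant: CEACAM5 (log2 differences -2.17 and -1.91), VIL1 (-1.85 and -1.75), CDH1 (-0.70 and -0.48) and KRT20 (-0.55 and -0.56). EPCAM, KRT8, KRT18 and KRT19 did not pass. Among all tested genes, 31.8% were lower in BR100 and 31.2% in BR200. The intestinal factor CDX2 was at the lowest value on all 6 arrays and CDX1 under 4. The mean over the 10 was 10.89 to 10.98 in wild type, 10.35 to 10.38 in BR100 and 10.40 to 10.50 in BR200, and its part in the members' differences was not tested. Of 10 measured leukocyte markers 8 were under 4 on every array, with the pan-leukocyte gene PTPRC at the lowest value. LYZ read 14.34 to 14.84, and CD14 was at 0.26 in BR100 (adjusted p = 0.0737) and rose by 1.05 in BR200. The leukocyte list mean was 3.78 to 3.79 in wild type, 3.82 to 3.84 in BR100 and 3.90 to 3.93 in BR200. Of 10 fibroblast markers 7, and of 7 endothelial markers 6, were under 4 on every array. The fibroblast marker ACTA2 rose by 1.02 and 1.13. TAGLN fell by 1.10 in BR100, where it was under 4, and COL1A1 fell by 0.33 in BR100. TAGLN (0.22) and COL1A1 (-0.20) did not pass in BR200. The COL1A1 reading rests on 217430_x_at and the ACTA2 reading on 200974_at, as their other probe sets were under 4 on every array.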

How the data were processed

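Expression was measured on 6 Affymetrix arrays. The authors deposited log2 values, 1 per probe set, made with GCRMA per the submitters' processing notes (version not given in the sources used here); GCRMA corrects background and normalizes, so values near 2.23 hold little information. No detection calls or depths were used, and the number of arrays limits precision. From these values, each gene was read from the probe set of highest mean naming it alone, by the array's annotation table, whose symbols did not differ from RefSeq (GRCh38.p14) for any of 41043 probe sets matched. Genes with at least 2 of 6 arrays at 4 or more were kept (10370 of 19775). A linear model with cell variant and labelling kit was fitted with limma 3.58.1 (lmFit, eBayes; R 4.3.3), two-sided, with Benjamini-Hochberg adjustment over all genes kept and calls at an adjusted p under 0.05; it had 2 residual degrees of freedom and 2.33 from eBayes. The model was tested on simulated data.

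Genes were named by a rule: all 8 members, up to 4 called genes of each list with the largest change per comparison with wild type, the 3 genes nearest each tested member, and neighbours on chromosome 4. RELA, JUN and the other genes named were chosen after their values were seen. The members and lists were chosen with earlier results of these data known. Alternatives changed the filter, the floor, the probe sets, the normalization, the block and the spread estimate, and left out each array in turn. BR100 and BR200 were compared with the same wild-type arrays.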

Additional observations from a re-analysis of the deposited data

Results flagged for a closer look

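CXCL2, CXCL16 and CXCL8 differed between the resistant variants in their response against the shared wild-type arrays, by limma's test of BR200 minus BR100. CXCL2 differed by 2.78 on the log2 scale (adjusted p = 0.00283), having fallen by 2.57 in BR100 and reading 0.20 above wild type in BR200, in the same direction in both kits. CXCL16 differed by 0.71 (adjusted p = 0.0333), having fallen by 0.55 in BR100. CXCL8 differed by -0.90 (adjusted p = 0.0204), having risen in both, less in BR200.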

How the results depend on the processing

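CXCL8 and CXCL1 in both resistant variants and CXCL2 in BR100 kept their direction and call under every alternative that tested them; without s and x probe sets, CXCL8 and CXCL2 had no tested probe set. Where 6 members were called in BR100 against wild type, testing without a low-value filter called 3; CXCL3, CXCL10 and CXCL16 had adjusted p-values of 0.0638, 0.232 and 0.0939. In BR200 against wild type, leaving out s and x probe sets called 1 member instead of 2. In BR200 against BR100, where 3 were called, no filter called 0 members by limma (4 at an unadjusted p under 0.05), no s and x sets called 1, no kit block called 1, and leaving out 1 array called 0 to 1 (4 to 5 at an unadjusted p under 0.05). By kit, where 4 were called, no filter called 1, no s and x sets 2, median centring 2, no variant block 0 (also 0 at an unadjusted p under 0.05), and leaving out 1 array 1. Testing each of 19055 probe sets, in place of genes, called 11972 probe sets in BR100, 11349 in BR200 and 6713 by kit. Over genes, removing the kit block, which pairs arrays by replicate number, left 4387 calls in BR100, 4100 in BR200 and 112 between the resistant variants, and removing the variant block left 59 by kit; CXCL3 and CXCL10 in BR100 lost their calls without the kit block (adjusted p = 0.0860 and 0.204). No filter left 15 calls between the resistant variants and 468 by kit, and eBayes with trend and robust settings gave 2254 between the resistant variants. Leaving out 1 array left 5540 to 6606 calls in BR100, 5162 to 6457 in BR200, 0 to 61 between the resistant variants (by limma, 1953 to 3273 at an unadjusted p under 0.05) and 430 to 1797 by kit. The CXCL16 kit difference of 0.02 turned to -0.11 with quantile normalization and -0.091 with median centring, and ran from -0.053 to 0.116 with 1 array left out. CXCL10 in BR200 passed when values under 4 were raised to 4 (adjusted p = 0.0176), and CXCL3 between the resistant variants passed with median centring (adjusted p = 0.0444). The cause of these changes was not tested.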

Other observations

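Other inflammatory products of epithelium were read beside the chemokines. Of 7 tested, 2 were higher and 4 lower in BR100, and 1 was higher and 4 lower in BR200. The shares over all tested genes were 36.7% higher and 31.8% lower in BR100, and 35.4% and 31.2% in BR200. PTGS2, the inducible cyclooxygenase, rose by 1.32 and 2.26. VNN1, a pantetheinase, fell (log2 differences -4.48 in BR100 and -1.32 in BR200), and LCN2, the iron-scavenging lipocalin, fell (log2 differences -3.09 and -2.35). VNN1 was under 4 in BR100. The complement gene CFB, counted among the lower ones, read 5.09 and 4.78 in wild type and under 4 on all 4 resistant arrays, so it passed the filter through wild type alone and its differences depend on the background estimate.

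The factors that control decay of cytokine mRNA moved both ways, with 4 higher and 3 lower of 7 tested in each resistant variant. Over all tested genes, 36.7% were higher and 31.8% lower in BR100, and 35.4% and 31.2% in BR200. ZFP36 (tristetraprolin), which promotes decay of AU-rich transcripts, fell (log2 differences -0.72 and -1.45). ZFP36L1 rose by 0.94 and 0.65, ZFP36L2 fell (log2 differences -0.72 and -1.04), and HNRNPD rose by 0.83 and 0.81 with its brightest probe set. Other HNRNPD probe sets disagreed: 229129_at gave -0.46 and -0.42, and 213359_at gave -0.37 in BR100 and 0.36 in BR200.

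The tie of CXCL10 between a wild-type and a BR100 array, and that of CCL20 on 3 arrays at 3.36, are of a kind seen in other low genes. Among genes kept by the filter, values identical on 2 or more arrays occurred in 48.2% of 191 with a mean of 2 to 4. The share was 35.5% of 1435 genes with a mean of 4 to 6 and 1.41% of 6300 genes with a mean of 8 or more. CCL20 was not kept by the filter and is outside these counts.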
